A study of Mus musculus with 10 samples.

Results

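The creatine kinase and phosphotransfer genes are 9 genes that move phosphate between nucleotides and creatine, or that supply the creatine. They are the creatine kinases Ckm, Ckmt2, Ckb and Ckmt1, the creatine transporter Slc6a8, the creatine synthesis enzymes Gatm and Gamt, and the adenylate kinases Ak1 and Ak3. They were taken by symbol, with earlier results of these data known, from 57185 genes with counts in RNA of apical ventricle, labelled as left ventricle. Of the 9 genes, 8 were among the 13451 genes tested. The RNA came from 5 MLPKO and 5 cRADΔ/Δ-MLPKO male mice, with 1 library per mouse. All 10 mice lacked muscle LIM protein (MLP-/-, the Csrp3 gene) and carried floxed alleles of Rrad, the gene of the calcium channel regulator RAD (RADfl/fl). The cRADΔ/Δ-MLPKO mice carried in addition MYH6-MerCreMer, a Cre recombinase driven in cardiomyocytes by the promoter of alpha myosin heavy chain and active after tamoxifen. All mice received tamoxifen at 100 mg per kg at 10 weeks of age and were sampled 1 month later. They are labelled as 16 weeks old, which is later than 1 month after week 10, and the sources used here do not settle this difference. The MLPKO mice had no Cre, so that the loss of RAD and the presence of Cre cannot be told apart, and no group with intact MLP was compared.

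Creatine kinase transfers phosphate between ATP and creatine in both directions. In the heart, a mitochondrial form charges creatine where ATP is made and a cytosolic form uses phosphocreatine to restore ATP at the myofibrils and the ion pumps, which makes the creatine kinase system a buffer for short peaks of energy use. Cardiomyocytes take creatine up from the blood, whereas its synthesis takes place mainly in kidney and liver, and adenylate kinases convert a pair of ADP into ATP and AMP. Lower creatine kinase activity and lower creatine content are well known features of failing hearts, and the comparison here asks whether the transcripts of this system differed with RAD deletion in hearts with dilated cardiomyopathy.

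Total counts lay between 33457406 and 49965101 per mouse. Levels are given as CPM, the counts scaled to a common library total, with TMM scaling, and the call rule was an adjusted p under 0.05 in the quasi-likelihood test of edgeR. Rrad, counted over the whole gene in all cell types, had 139.7 to 281.7 CPM in MLPKO and 134.5 to 202.3 CPM in cRADΔ/Δ-MLPKO (log2 fold change −0.38, edgeR adjusted p = 0.29), so these counts do not check the labels. Csrp3 transcripts were counted in all mice, at 1009 to 3261 CPM in MLPKO and 691 to 1177 CPM in cRADΔ/Δ-MLPKO (log2 fold change −1.08, edgeR adjusted p = 0.067). The tissue label held, since the 10 cardiomyocyte markers summed to at least 54150 CPM in every mouse while the 8 skeletal muscle markers, a tissue that is also rich in Ckm, summed to at most 2.99 CPM with Myh4 at 0. MLPKO mouse 2 stood apart in several of the genes below.

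Compared per kilobase of merged exons, Ckmt2, the mitochondrial creatine kinase of striated muscle, was by far the most abundant transcript of the system. It had 322 ± 23.5 CPM per kilobase in MLPKO and 299 ± 18.4 in cRADΔ/Δ-MLPKO (SD, n = 5 each), the rank of 59 among 13415 genes ranked on this scale. Ckm, Ak1 and Slc6a8 formed the next group with 57.2, 53.7 and 51.8 CPM per kilobase over the 10 mice. In cRADΔ/Δ-MLPKO Ckm, at 58.4 to 68.4 CPM per kilobase, lay above Ak1, at 51.2 to 56.0, while in MLPKO these neighbours overlapped, as did Ak1 and Slc6a8 in both genotypes. Ak3 and Ckb followed with 13.6 and 12.0 CPM per kilobase and overlapped in both genotypes. The synthesis enzymes were near the lower end, with 0.970 CPM per kilobase for Gamt and 0.533 for Gatm, and Ckmt1, the mitochondrial creatine kinase of most other tissues, had 0.0631. The order of Ckm, Ak1 and Slc6a8, and that of Gamt and Gatm, depended on the length used. With the canonical transcript in place of merged exons, Ak1 had 255 CPM per kilobase and Ckm 139, and Gatm had 1.49 and Gamt 1.07. Ckmt2 stayed first and Ckmt1 last with each of the 3 lengths tried.

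All 9 genes are protein-coding. On GRCm39, Ckm lies on chromosome 7 (19138701 to 19157965), Ckmt2 on chromosome 13 (92001503 to 92025608) and Ckb on chromosome 12 (111635789 to 111639008). Part of the exon sequence of 7 of the 9 genes is shared with genes on the opposite strand, and the strand setting of the counting is not given in the sources used here. Of the 9869 merged exon bases of Ckm, 2564 are shared with the long noncoding RNA A930016O22Rik, and of the 5546 of Gamt, 1382 are shared with Ndufs7. For comparison, the smooth muscle gene Tagln shares 1364 of 2044 bases with genes of the opposite strand only and had between 2 and 13 counts per mouse, and Nme3, with 2 of 1139 bases free of other genes, had 0 counts in every mouse. Whether reads over shared exons were counted was not tested. Divided by the length that no other gene shares, the same counts gave Ckm 77.3, Slc6a8 56.7, Ak1 53.7 and Gamt 1.29 CPM per kilobase. These are levels over those bases only if no read over shared exons was counted.

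The start regions of the 3 creatine kinase genes that were tested are printed here to show what lies before genes of 1 enzyme family whose levels differ. Each run is the 250 bases before the RefSeq transcript start on the coding strand, in build GRCm38.p6, at chr7:19410844-19411093 (plus strand) for Ckm, chr13:91876886-91877135 (minus strand) for Ckmt2 and chr12:111672339-111672588 (minus strand) for Ckb. Capitals mark the letters CANNTG, known as the E-box that basic helix-loop-helix factors read, and the letters TATANA, a core promoter element. Each was searched on both strands, and in Ckm the pair of matches of the latter overlap each other.
Ckm: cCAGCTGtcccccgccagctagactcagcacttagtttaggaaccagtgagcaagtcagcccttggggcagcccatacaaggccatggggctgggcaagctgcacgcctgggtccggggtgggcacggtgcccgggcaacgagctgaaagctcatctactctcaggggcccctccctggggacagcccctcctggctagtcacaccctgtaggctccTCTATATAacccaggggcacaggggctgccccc
Ckmt2: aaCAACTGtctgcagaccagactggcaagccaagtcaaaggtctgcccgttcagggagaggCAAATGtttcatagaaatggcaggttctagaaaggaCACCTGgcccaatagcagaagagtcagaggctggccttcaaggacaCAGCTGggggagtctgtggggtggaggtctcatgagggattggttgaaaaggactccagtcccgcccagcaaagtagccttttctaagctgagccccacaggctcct
Ckb: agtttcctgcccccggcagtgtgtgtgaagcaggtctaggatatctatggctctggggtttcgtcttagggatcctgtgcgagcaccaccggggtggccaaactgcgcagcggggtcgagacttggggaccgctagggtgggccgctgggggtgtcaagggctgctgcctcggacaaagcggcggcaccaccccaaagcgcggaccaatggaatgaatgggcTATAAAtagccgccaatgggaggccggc

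The Ckmt2 window held 4 CANNTG matches and no TATANA match, whereas the Ckb window held no CANNTG match and 1 TATANA match, which began 28 bases before the start. The Ckm window held 1 CANNTG match at its far end, 249 bases before the start, and 2 TATANA matches at 33 and 31 bases. CANNTG was present in 66.2% and TATANA in 22.6% of 32851 windows of this length, so neither is particular to these genes, and a match describes letters only.

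None of the 8 genes tested was called between the genotypes, where 2.74% of all genes tested were called. DESeq2 also called 0 of the 8, against 9.65% of all genes, and 1 of the 8 had an unadjusted p under 0.05 in edgeR, against 21.6%. The genotypes overlapped in every one of the 9 genes, whereas 6.62% of all genes tested did not overlap. By the fit, 4 of the 8 genes were lower and 4 higher in cRADΔ/Δ-MLPKO, with a median log2 fold change of 0.01, the same as the median of all genes tested. The comparison was precise enough to bound most of the differences, since for Ckm, Ckmt2, Ckb, Slc6a8, Ak1 and Ak3 the 95% intervals of the fold between genotypes stayed between 0.823 and 1.42. In bulk tissue, fewer cells of a type and less RNA per cell cannot be told apart.

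**Figure D1:**
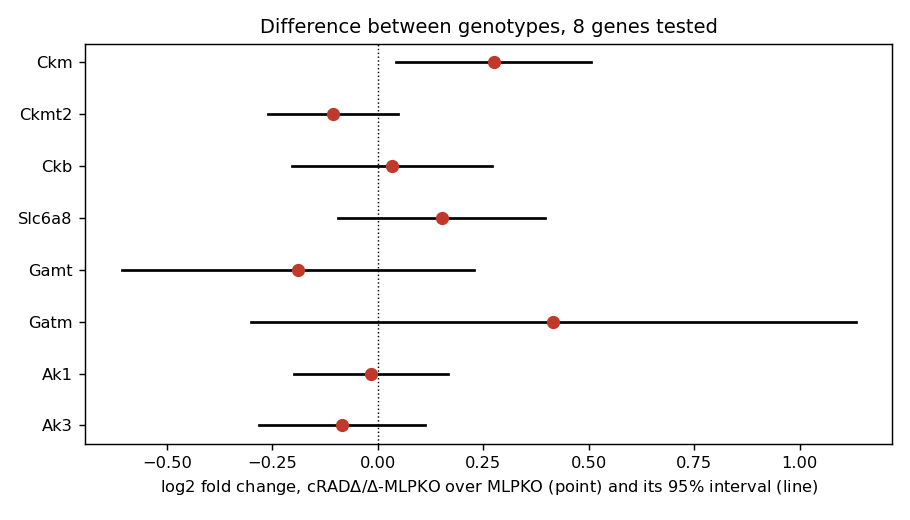
The log2 fold change of cRADΔ/Δ-MLPKO over MLPKO (horizontal axis) is shown for the 8 genes tested, as a point with its 95% interval from the quasi-likelihood fit (n = 5 mice per genotype). The interval of Ckm, 0.04 to 0.51, lies above 0 before adjustment for multiple testing, the other 7 include 0, and Gatm has the widest, −0.30 to 1.13.

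Ckm encodes the cytosolic muscle creatine kinase, part of which is bound at the M-band of the sarcomere. Its level in MLPKO mice 1 to 5 was 459, 393, 581, 560.1 and 564 CPM, and in cRADΔ/Δ-MLPKO mice 1 to 5 it was 582, 675, 604, 655 and 576 CPM. MLPKO mice 2 and 1 were the lowest of the 10, and 4 of the 5 cRADΔ/Δ-MLPKO mice lay above every MLPKO mouse, so that the genotypes overlapped by a single cRADΔ/Δ-MLPKO mouse. The means were 511 ± 81.6 and 619 ± 44.2 CPM (SD, n = 5 each). The log2 fold change was 0.27 with a standard error of 0.11 and did not pass the test (edgeR adjusted p = 0.158, DESeq2 adjusted p = 0.106). Over the fits that left out 1 mouse the log2 fold change ranged from 0.19, without MLPKO mouse 2, to 0.33, and no fit called the gene. Among the 9 genes, Ckm had the smallest p between the genotypes.

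Ckmt2, whose product sits between the mitochondrial membranes and passes phosphate from newly made ATP to creatine, leaned the other way. It had 1895, 1800, 1643, 1685 and 1947 CPM in MLPKO mice 1 to 5 and 1688, 1740, 1563, 1783 and 1557 CPM in cRADΔ/Δ-MLPKO mice 1 to 5. The lowest values were those of cRADΔ/Δ-MLPKO mice 5 and 3, and the other three lay within the MLPKO range. The means of 1794 ± 131 and 1666 ± 103 CPM (SD, n = 5 each) differed by a log2 fold change of −0.11 with a standard error of 0.07 (edgeR adjusted p = 0.411), and the 95% interval of the fold was 0.835 to 1.03.

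Ckb, the brain-type cytosolic creatine kinase that is more abundant in the fetal heart and in many non-muscle cells, differed least in mean level among the kinases. Its values were 34.7, 49.9, 38.3, 35.2 and 32.8 CPM in MLPKO mice 1 to 5 and 40.3, 38.9, 41.2, 33.8 and 41.1 CPM in cRADΔ/Δ-MLPKO mice 1 to 5. MLPKO mouse 2 was the highest of the 10 mice and cRADΔ/Δ-MLPKO mouse 4 was the lowest of its genotype. The log2 fold change was 0.03 (95% interval −0.20 to 0.27, edgeR adjusted p = 0.897), and 0.15 without MLPKO mouse 2 (edgeR adjusted p = 0.283).

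Ckmt1 was barely detected. The raw counts were 10, 14, 38, 10 and 10 in MLPKO and 2, 18, 21, 4 and 8 in cRADΔ/Δ-MLPKO, so that 4 of the 10 mice exceeded 10 counts and the gene did not enter the test. In a fit without a filter on low counts, which called 1.62% of its genes, the log2 fold change was −0.56 with a 95% interval from −1.83 to 0.71 (edgeR adjusted p = 0.643), a range too wide to place the genotypes in either order. Its exons share 1082 of 5087 bases with Ppip5k1 and Strc on the opposite strand.

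**Figure D2:**
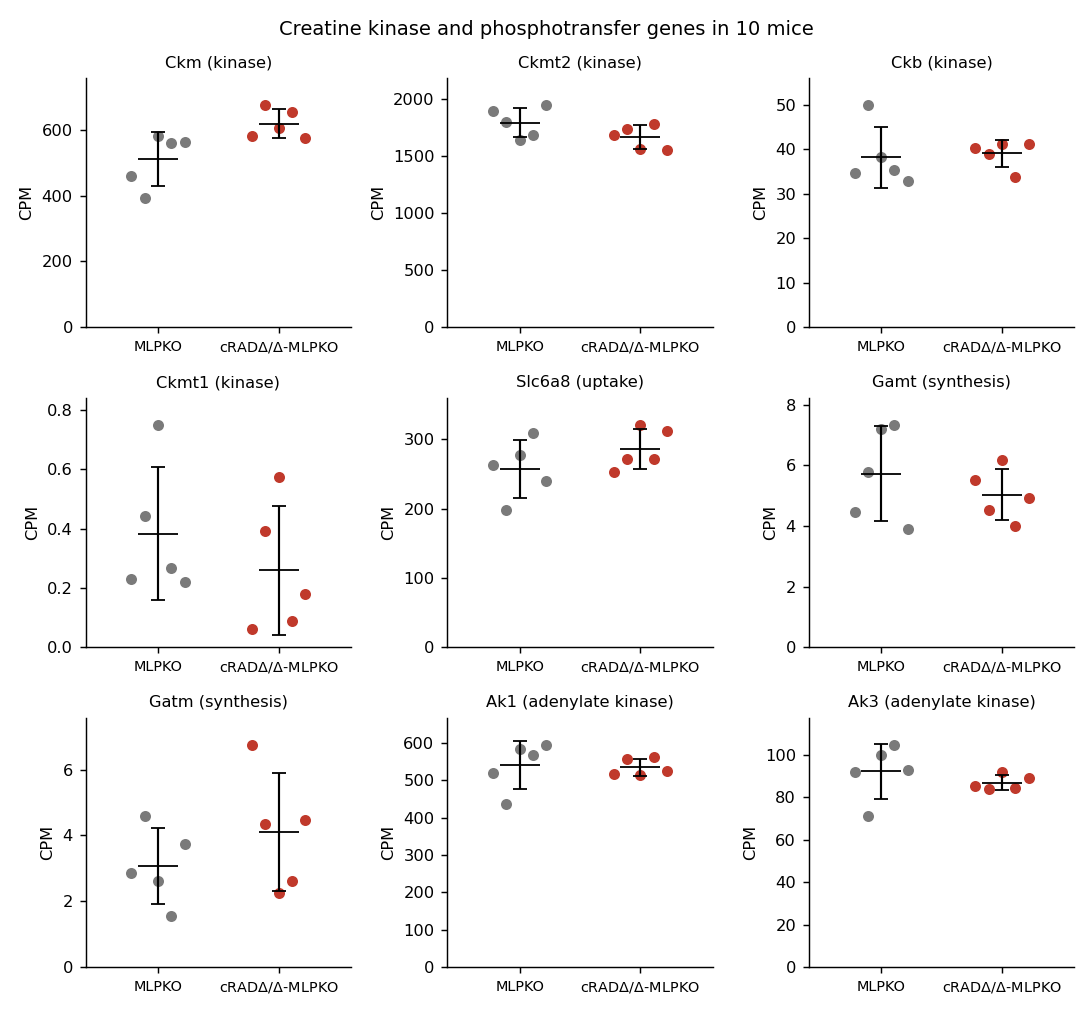
Each panel shows the CPM of 1 gene (vertical axis, from 0) in the 5 MLPKO mice (grey) and the 5 cRADΔ/Δ-MLPKO mice (red), ordered by mouse number from left to right, with the mean and SD in black. The genotypes overlap in all 9 panels, least in Ckm, and MLPKO mouse 2 (the second grey point) is the lowest of the 10 mice in Ckm, Slc6a8, Ak1 and Ak3 and the highest in Ckb.

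Because Ckm and Ckmt2 leaned in opposite directions, the balance between the kinases was followed within each mouse, as a description without a test. Ckm made up 13.5 ± 2.35% of the summed counts per kilobase of the 4 kinases in MLPKO and 16.7 ± 0.653% in cRADΔ/Δ-MLPKO (SD, n = 5 each). The share of Ckmt2 was 83.4 ± 2.20% and 80.0 ± 0.770%, that of Ckb 3.09 ± 0.634% and 3.26 ± 0.413%, and that of Ckmt1 0.0199 ± 0.0125% and 0.0138 ± 0.0120%. In single mice, the share of Ckm was 11.7%, 10.5%, 16.1%, 15.3% and 13.7% in MLPKO mice 1 to 5 and 15.7%, 17.4%, 17.3%, 16.7% and 16.6% in cRADΔ/Δ-MLPKO mice 1 to 5. The genotypes overlapped through MLPKO mouse 3 and cRADΔ/Δ-MLPKO mouse 1.

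The ratio of both transcripts needs no length. Ckm had 24.2, 21.9, 35.4, 33.2 and 29.0 counts per 100 counts of Ckmt2 in MLPKO mice 1 to 5 and 34.5, 38.8, 38.7, 36.7 and 37.0 in cRADΔ/Δ-MLPKO mice 1 to 5. These are means of 28.7 ± 5.74 and 37.1 ± 1.75 (SD, n = 5 each). In MLPKO the ratio spread from 21.9 to 35.4, and in cRADΔ/Δ-MLPKO all mice lay between 34.5 and 38.8, with the same pair of mice overlapping. Ckb had 7.79 ± 2.81 counts per 100 counts of Ckm in MLPKO, where mouse 2 stood at 12.7, and 6.36 ± 0.853 in cRADΔ/Δ-MLPKO.

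**Figure D3:**
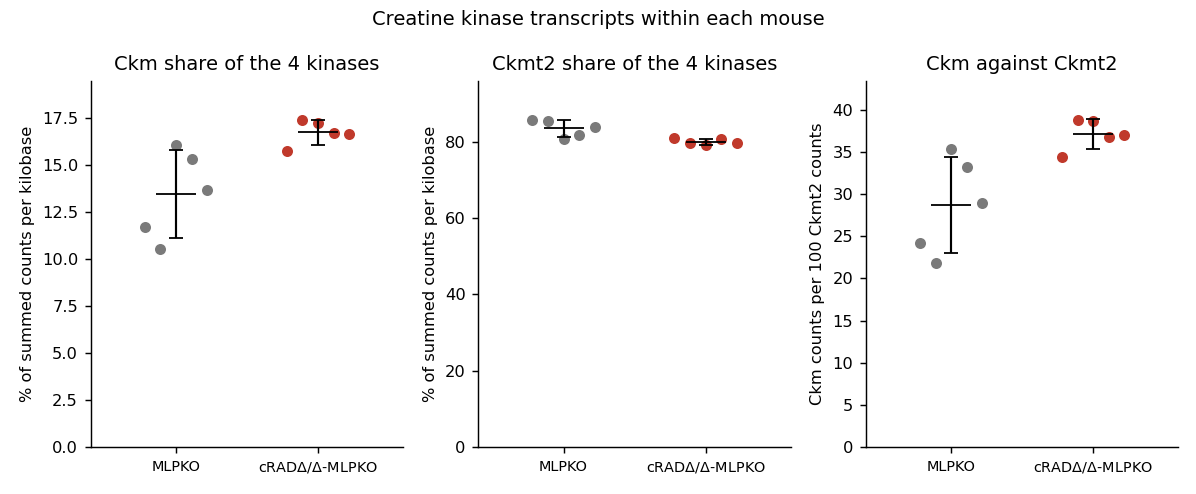
The share of Ckm (left) and of Ckmt2 (middle) in the summed counts per kilobase of the 4 creatine kinases, in percent, and the counts of Ckm per 100 counts of Ckmt2 (right) are shown for each mouse, with the mean and SD in black. In all 3 panels the cRADΔ/Δ-MLPKO mice lie closer together than the MLPKO mice, and the right panel has means of 28.7 and 37.1.

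Slc6a8, the sodium- and chloride-dependent creatine transporter of the cell membrane (chromosome X, 72716728 to 72726108), had 262, 198, 278, 309 and 239 CPM in MLPKO mice 1 to 5 and 253, 272, 321, 271 and 312 CPM in cRADΔ/Δ-MLPKO mice 1 to 5. MLPKO mouse 2 was the lowest, and cRADΔ/Δ-MLPKO mice 3 and 5 lay above every MLPKO mouse. The means were 257 ± 41.8 and 286 ± 29.3 CPM (SD, n = 5 each). This is a log2 fold change of 0.15 with a standard error of 0.11 (edgeR adjusted p = 0.471), and it was 0.07 without MLPKO mouse 2.

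Creatine is made by Gatm, which joins arginine and glycine to guanidinoacetate, and Gamt, which methylates it. Both were expressed at a low level. Gatm (chromosome 2, 122424948 to 122441799) had 2.87, 4.595, 2.61, 1.55 and 3.73 CPM in MLPKO mice 1 to 5 and 6.76, 4.36, 2.24, 2.63 and 4.48 CPM in cRADΔ/Δ-MLPKO mice 1 to 5. A single mouse, cRADΔ/Δ-MLPKO mouse 1, lay above the MLPKO range. Gatm had a log2 fold change of 0.42, the largest in size among the 8 genes, with a standard error of 0.33, a 95% interval of the fold from 0.812 to 2.19 and an edgeR adjusted p of 0.502. Leaving out 1 mouse at a time moved it between 0.16 and 0.60, and the raw counts were 58 to 226 per mouse, with a coefficient of variation between mice of 37.6% in MLPKO and 43.9% in cRADΔ/Δ-MLPKO. Gamt (chromosome 10, 80089960 to 80096860) had 4.46, 5.77, 7.19, 7.33 and 3.88 CPM in MLPKO and 5.51, 4.53, 6.17, 4.01 and 4.93 CPM in cRADΔ/Δ-MLPKO. All cRADΔ/Δ-MLPKO mice lay within the MLPKO range, with a log2 fold change of −0.19 (95% interval of the fold 0.657 to 1.17, edgeR adjusted p = 0.617).

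Ak1, the cytosolic adenylate kinase (chromosome 2, 32511448 to 32528933), was nearly level. It had 520.3, 436, 585, 567 and 596 CPM in MLPKO mice 1 to 5 and 516, 559, 513, 562 and 525 CPM in cRADΔ/Δ-MLPKO mice 1 to 5. All cRADΔ/Δ-MLPKO mice lay within the MLPKO range, which was set at its lower end by mouse 2. Its log2 fold change was −0.02 (95% interval −0.20 to 0.17, edgeR adjusted p = 0.937). Ak3, which works in the mitochondrial matrix with GTP (chromosome 19, 28970669 to 29025525), had 92.0, 71.1, 100.1, 104.8 and 93.0 CPM in MLPKO and 85.6, 84.1, 91.8, 84.3 and 89.2 CPM in cRADΔ/Δ-MLPKO. These values too lay within the MLPKO range, with a log2 fold change of −0.08 (95% interval −0.28 to 0.11, edgeR adjusted p = 0.639). Without MLPKO mouse 2 it was −0.16 (edgeR adjusted p = 0.130).

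Most of the 8 genes tested varied less among cRADΔ/Δ-MLPKO mice than among MLPKO mice, as did most of all genes tested. The SD of log2 CPM was smaller in cRADΔ/Δ-MLPKO in 7 of the 8 genes, all but Gatm, against 61.7% of all genes tested. It was 0.24 and 0.10 for Ckm, 0.24 and 0.12 for Ckb, 0.18 and 0.06 for Ak1 and 0.22 and 0.06 for Ak3 (MLPKO and cRADΔ/Δ-MLPKO). For Ckmt2 it was 0.11 and 0.09, for Slc6a8 0.24 and 0.15, for Gamt 0.37 and 0.22 and for Gatm 0.50 and 0.57. MLPKO mouse 2 was the lowest or the highest of the 10 mice in 5 of the 8 genes, against 40.2% of all genes tested. Without it the SD in MLPKO was 0.16 for Ckm, 0.09 for Ckb, 0.09 for Ak1 and 0.09 for Ak3. Then 6 of the 8 genes had the smaller SD in cRADΔ/Δ-MLPKO, against 50.6% of all genes. Ckb, at 0.09 in MLPKO and 0.12 in cRADΔ/Δ-MLPKO, was no longer among them. Slc6a8, one of these 6, had 0.15 in both genotypes after rounding. MLPKO mouse 2 also had the fewest counts of all mice, 33457406, close to the 33759811 of cRADΔ/Δ-MLPKO mouse 1. MLPKO mouse 2 had the highest summed level of the 5 red blood cell markers (2798 CPM, against 288 to 1978 in the other 9). The part of either in these values was not tested. Without this mouse, as with it, none of the 8 genes was called.

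**Figure D4:**
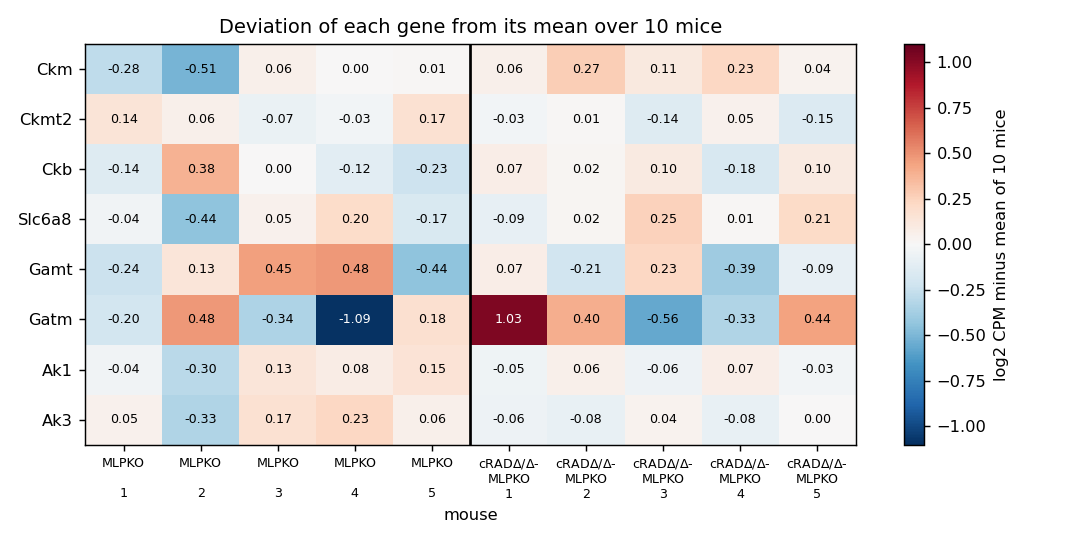
Each cell gives the log2 CPM of 1 gene in 1 mouse minus the mean of that gene over the 10 mice, with blue below and red above the mean, for the 8 genes tested and the 10 mice numbered within genotype. MLPKO mouse 2 is low in Ckm, Slc6a8, Ak1 and Ak3 and high in Ckb, while Gatm has the widest range, from −1.09 in MLPKO mouse 4 to 1.03 in cRADΔ/Δ-MLPKO mouse 1.

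Some cell type markers moved with the genotype, and they stand beside all of the values above. The 10 cardiomyocyte markers summed to 73560 to 83940 CPM in MLPKO and 54150 to 69770 CPM in cRADΔ/Δ-MLPKO without overlap, with 9 of 10 lower in the fit and 1, Tnnt2, called by edgeR (log2 fold change −0.57, edgeR adjusted p = 0.0184). Myh6, the highest of these markers, itself overlapped, with 33030 to 40220 and 25410 to 34380 CPM (edgeR adjusted p = 0.104). The 6 endothelial markers summed to 689 to 770 and 810 to 929 CPM, with 6 of 6 higher in the fit and 1, Tek, called by edgeR. The 7 smooth muscle and pericyte markers summed to 496 to 646 and 656 to 880 CPM. Of the 6 of them that were tested, 4 were higher in the fit. Among these, edgeR called Acta2 (log2 fold change 1.24) and Rgs5 (0.44) but not Kcnj8 (0.22) or Myh11, which was level (0.01). The other 2 were lower in the fit, Cnn1 (log2 fold change −2.17, edgeR adjusted p = 0.103) and Pdgfrb (−0.01). Myh6, Kcnj8, Myh11, Cnn1 and Pdgfrb are named after their values were seen. The 7 macrophage markers were higher in the fit in 7 of 7, without a call by edgeR, and their sums overlapped (114 to 159 and 140 to 241 CPM). DESeq2 called 3 cardiomyocyte, 3 endothelial, 2 smooth muscle and pericyte and 2 macrophage markers. Of all 13451 genes tested, edgeR called 2.74% and DESeq2 9.65%, and 6438 were lower in the fit. Taken singly, 6.62% of all genes tested did not overlap between the genotypes. Fibroblast and neural markers overlapped. The adipocyte markers summed to 76.1 CPM in cRADΔ/Δ-MLPKO mouse 3 and to at most 0.706 CPM elsewhere, and the atrial markers to 24.6 CPM in cRADΔ/Δ-MLPKO mouse 1 and to at most 6.24 CPM elsewhere. The part of these differences in the levels of Ckm, Ckmt2 and the other members was not tested.

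Over the 10 mice, the genes whose log2 CPM followed Ckm most closely were Mpc2, a subunit of the mitochondrial pyruvate carrier (Pearson r = 0.968), Ift56, an intraflagellar transport gene (0.959), and Mrpl45, a mitochondrial ribosomal protein gene (0.947). For Ckmt2 they were Plaat1 (0.944), Lman2l (0.937) and Leprotl1 (0.937), and for Ckb they were Alg9 (0.934), Osbpl5 (0.923) and Prdm15 (0.918). These are the highest of 13451 values each, are given as descriptions, and include the low or high value of MLPKO mouse 2 for Ckm and Ckb. None of the 9 was called between the genotypes.

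Around the 9 genes, 65 genes in 4 lists of the same metabolism were followed, of which 56 were tested and 1 was called. Among 18 other adenylate, nucleoside diphosphate and monophosphate kinases, 13 were tested and none was called (median log2 fold change 0.05, range −0.16 to 0.44). The most abundant were Guk1, the guanylate kinase, with 64.5 ± 3.94 and 60.9 ± 2.85 CPM in MLPKO and cRADΔ/Δ-MLPKO, and Ak4, a mitochondrial adenylate kinase family member, with 38.4 ± 4.26 and 41.8 ± 5.52 CPM (SD, n = 5 each). All 11 mitochondrial carriers and channels were tested and none was called (median 0.02). Slc25a4, the heart form of the ATP and ADP exchanger, had 3757 ± 290.2 and 3768 ± 218 CPM, and Slc25a3, the phosphate carrier, 985 ± 63.8 and 1012 ± 56.2 CPM.

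Of 17 genes for arginine, glycine and methyl supply, 14 were tested and none was called (median 0.05). The most abundant were Oat, ornithine aminotransferase, with 189 ± 15.3 and 194 ± 8.65 CPM, and Slc6a6, with 154 ± 36.7 and 127 ± 11.0 CPM, which carries taurine and is listed as the relative of the creatine transporter. DESeq2 called 1 gene among the carriers and 1 in this list that edgeR did not. Slc25a5, another ATP and ADP exchanger, had 132 to 189 CPM in MLPKO and 192 to 245 CPM in cRADΔ/Δ-MLPKO (log2 fold change 0.35, edgeR adjusted p = 0.0728, DESeq2 adjusted p = 0.0183). Odc1, the ornithine decarboxylase of polyamine synthesis, had 50.7 to 78.8 and 44.4 to 48.3 CPM (log2 fold change −0.40, edgeR adjusted p = 0.0667, DESeq2 adjusted p = 0.0127). Neither gene overlapped between the genotypes, where 6.62% of all genes tested did not overlap. Both are named because DESeq2 called them, after their values were seen.

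The 1 call was in the fourth list, of 19 genes for AMP breakdown and the AMP-activated protein kinase (18 tested, 12 of them lower in the fit, median −0.07). Prkab2, the beta 2 regulatory subunit of this kinase, through which it binds glycogen (chromosome 3, 97565509 to 97581146), fell. It had 119, 192, 114, 89.1 and 143 CPM in MLPKO mice 1 to 5 and 64.8, 60.5, 66.0, 55.3 and 69.0 CPM in cRADΔ/Δ-MLPKO mice 1 to 5. Every cRADΔ/Δ-MLPKO mouse lay below every MLPKO mouse, and the MLPKO mice spread widely, with mouse 2 the highest. The log2 fold change was −1.06 with a standard error of 0.17 (edgeR adjusted p = 0.0161, DESeq2 adjusted p = 1.55e-07). Leaving out 1 mouse at a time kept the call, with log2 fold changes of −1.17 to −0.88. The edgeR adjusted p then ranged from 0.0056 without MLPKO mouse 4 to 0.0497, near the threshold, without MLPKO mouse 5. The other subunits were not called. The catalytic Prkaa2 had 214 ± 26.5 and 211 ± 10.3 CPM, and Prkab1, the other beta subunit, named for comparison after its values were seen, 20.9 ± 4.84 and 20.1 ± 1.95 CPM (SD, n = 5 each). Prkag3, a gamma subunit named for the same reason as Slc25a5 and Odc1, had 6.59 to 9.22 and 3.55 to 6.43 CPM and was called by DESeq2 alone (log2 fold change −0.49, edgeR adjusted p = 0.109, DESeq2 adjusted p = 0.0407). Adss1, the muscle adenylosuccinate synthase, had 139 ± 15.9 and 159 ± 11.9 CPM (log2 fold change 0.20, edgeR adjusted p = 0.195). One call among 56 genes tested is 1.79%, near the 2.74% of all genes. DESeq2 called 4 of the 56, where it called 9.65% of all genes tested.

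**Figure D5:**
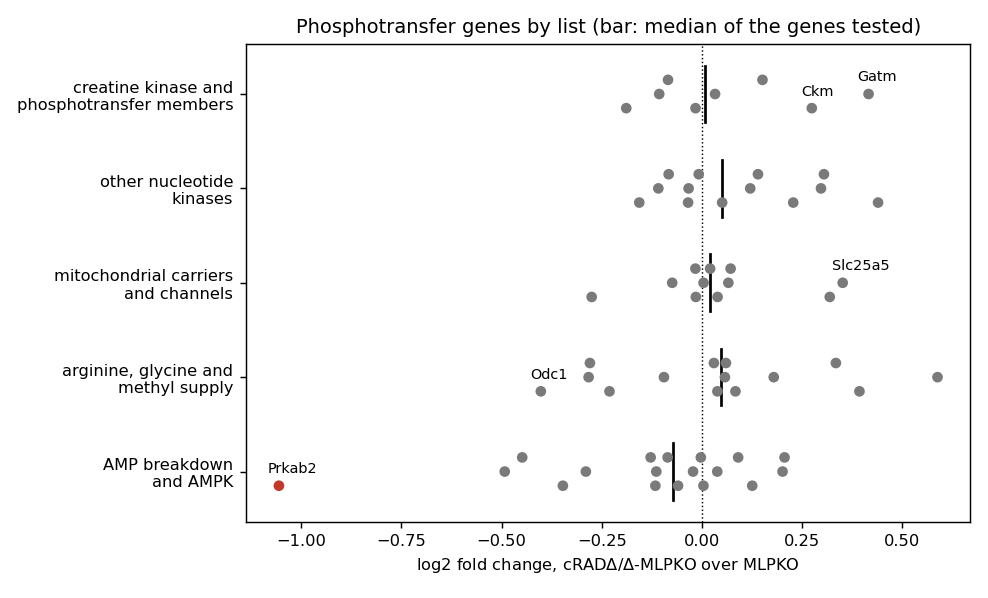
Each point is the log2 fold change of cRADΔ/Δ-MLPKO over MLPKO (horizontal axis) of 1 gene tested, in the 8 creatine kinase and phosphotransfer members and in 4 further lists, with the median of each list as a bar (vertical position within a list has no meaning). Prkab2, at −1.06 in red, is the one gene with an edgeR adjusted p under 0.05, and the medians lie between −0.07 and 0.05.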

How the data were processed

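Polyadenylated RNA of apical ventricle, labelled as left ventricle, was sequenced as 1 library per mouse (5 MLPKO and 5 cRADΔ/Δ-MLPKO), and mice of a genotype are separate animals. Per the labels and the methods of the study, the authors checked reads with FastQC, aligned them to GRCm39 with STAR and deposited raw counts per gene from featureCounts. Versions, annotation release and the settings for strand, read pairs and reads shared by genes are not given in the sources used here. From 1 to 20 counts, 73.7% to 80.3% of values were even numbers in each library, so that a count need not be an independent fragment.

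The table holds 60676 rows, of which 3491 have no values and were left out. Genes were named by GENCODE M39, which held 56629 of the 57185 others. Following the methods of the study, a gene was tested if it exceeded 10 counts in 6 or more mice and was not named Gm or Rik. Ids without a name in GENCODE M39 were kept, whereas the study excluded non-annotated genes and ranked fewer genes than were tested here. The test between genotypes was quasi-likelihood F in edgeR 4.0.16 (R 4.3.3), after TMM scaling, with no covariate and with Benjamini-Hochberg adjustment over all 13451 genes, at an adjusted p under 0.05. The study used DESeq2, run here as an alternative (version 1.42.0) together with limma-voom (3.58.1), other scalings and filters, robust dispersion, the mouse number as a block and leaving out each mouse. Steps were tested on simulated data with 200 changed genes. Lengths for levels between genes are merged exons of GENCODE M39, and canonical transcripts and exon bases shared with no other gene are alternatives chosen after seeing the data. Likeness of pattern used log2(CPM + 0.5). Tables and plots used Python 3.11.15, pandas 2.3.3, numpy 2.4.6 and matplotlib 3.10.9.

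The 9 genes, the other lists and the markers were chosen with earlier results of these data known. Named are all 9 members, in each other list every gene called and the 2 with the highest mean CPM, the 3 genes most like Ckm, Ckmt2 and Ckb, and Rrad and Csrp3. Others are marked where they appear, and marker genes are named where called. Start regions were taken from RefSeq (GRCm38.p6), which held all 3 genes looked up. Protein sequences were not used here.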

Additional observations from a re-analysis of the deposited data

Results flagged for a closer look

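One value stood apart within its genotype. Slc25a4, the heart form of the mitochondrial ATP and ADP exchanger, had 4269 CPM in MLPKO mouse 5, where the other 4 MLPKO mice had 3550.0 to 3672 CPM. The gap was 0.831 of the range of the 5 mice, above the critical value of 0.71. With 44 groups of 5 looked at, chance flags about 1 group in 20. The cRADΔ/Δ-MLPKO mice had 3468 to 4022 CPM.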

How the results depend on the processing

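No creatine kinase or phosphotransfer member was called in any of the 19 alternatives, and 146 member fits kept their direction while 6 did not. These 6 were near 0, with Ak1 at 0.01 under upper quartile scaling and, over the fits that left out 1 mouse, Ak1 between −0.08 and 0.02 and Ckb between −0.02 and 0.15. Among other named genes, Prkaa2 stood at 0.00 under upper quartile scaling and between −0.09 and 0.03 with a mouse left out, and Slc25a4 between −0.02 and 0.05. Over all genes, DESeq2 called 1298 in place of 369, and leaving out 1 mouse gave 50 (without cRADΔ/Δ-MLPKO mouse 5) to 826 (without MLPKO mouse 4). Counts of calls were also over 1.5 times lower without MLPKO mouse 1 (107) or 5 (57) and without cRADΔ/Δ-MLPKO mouse 2 (142), 3 (105) or 4 (100), and the cause was not tested. Upper quartile scaling called 207 lower and 175 higher, against 242 and 127. In the 4 other lists DESeq2 called 4 genes in place of 1, and leaving out a mouse gave 1 to 3, with 2 without MLPKO mouse 3 and 3 without MLPKO mouse 4. The share of Ckm in the kinases moved with the length used, to 21.8% and 26.6% (MLPKO and cRADΔ/Δ-MLPKO) of raw counts, 9.74% and 12.3% by canonical transcripts and 16.8% and 20.7% by unshared exons, and was higher in the mean of cRADΔ/Δ-MLPKO in each. Mouse numbers did not pair the mice (correlations of same-numbered mice −0.038 to 0.197). With the number as a block, 281 genes were called and none of the members (Ckm 0.29, edgeR adjusted p = 0.185). Ckmt1, with 2 to 38 counts per mouse, did not pass the count filter of the main test. With the filterByExpr filter of edgeR it was tested and not called (log2 fold change −0.56, edgeR adjusted p = 0.626).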
